A study of Mus musculus with 6 samples.

Results

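Stefins and cystatins are small inhibitors of cysteine proteases. The 8 genes described here, Stfa1, Stfa2, Stfa3, Stfa2l1, Cstb, Cst3, Cst6 and Cst7, were taken by symbol from the deposited table, in which each of the 8 has a row of its own among 28853 rows. A row is a transcript cluster, the set of probes that the array assigns to a gene. In 1 further row Stfa1 stands with other symbols, and it is given apart. RNA came from intact whole digit tips of mice aged 8 weeks, on 3 arrays labelled K14-CreER;Ctnnb1 cKO and 3 arrays labelled control (wildtype). Ctnnb1 encodes beta-catenin. K14-CreER is a Cre recombinase under the keratin 14 promoter, active in basal epithelium, so the deletion is aimed at epidermis and nail epithelium, while the RNA also came from dermis, bone, vessels and glands. The labels give neither the inducer and its timing nor the number of mice behind an array, so the spread between arrays may be partly technical. The log2 values are set so that the median control array of every row is 0. They hold no level, so genes cannot be ranked by abundance and the tissue's markers cannot be checked for presence.

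Stefins act inside cells, lack a signal peptide and block cathepsins by plugging the active-site cleft. Mice carry a duplicated stefin A family, known from neutrophils and from stressed or differentiating keratinocytes, where humans have a single gene, CSTA. Stefin B (Cstb) is made by most cells. Cystatin C (Cst3) is secreted by nearly every tissue. Cystatin M/E (Cst6) is secreted by epidermis and skin appendages and restrains legumain and cathepsin L, and in mice its loss disturbs cornification and hair follicles. Cystatin F (Cst7) is sorted to the endolysosomes of immune cells.

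The members were chosen by their measured differences between these same cKO and control arrays, so their differences are given as a description without a test. Ctnnb1 itself fell by 1.14 ± 0.24 (log2, limma SE) in the cKO arrays, with a limma adjusted p of 0.0416 over all rows (0.0192 to 0.283 over the alternatives). The call ended without cKO replicate 1 (0.135), 2 (0.0707) or 3 (0.204) and without control replicate 1 (0.0967) or 3 (0.161). Array medians lay between -0.0086 and 0.0779, and the median difference over all rows was -0.0096.

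The 4 stefin A genes were all higher in the cKO arrays. Stfa2l1, a stefin A2-like gene, had values of 2.80, 2.65 and 3.67 in cKO replicates 1 to 3, against 0.18, 0 and -1.24 in control replicates 1 to 3. Stfa2 had 2.75, 1.98 and 3.31 in the cKO arrays and 0.39, 0 and -0.51 in the controls. In both genes the groups lay far apart, cKO replicate 3 was the highest array and control replicate 3 the lowest. Stfa1 had 2.03, 2.18 and 2.17 in the cKO arrays and -0.10, 0.12 and 0 in the controls, and it had the smallest spread of the 4 within both groups. Stfa3 had 1.38, 1.38 and 1.67 in the cKO arrays and -0.41, 0.09 and 0 in the controls, again without overlap.

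As log2 differences, Stfa2l1 was higher by 3.39 ± 0.38 (limma SE, 3 arrays per group), Stfa2 by 2.72 ± 0.33, Stfa1 by 2.12 ± 0.20 and Stfa3 by 1.58 ± 0.22. These are geometric mean ratios of 10.5, 6.58, 4.35 and 3.00. The smallest gap between the lowest cKO and the highest control array was 1.28, in Stfa3, and the widest was 2.48, in Stfa2l1. Within the cKO group the standard deviation was 0.080 for Stfa1 and 0.66 for Stfa2. With 1 array left out, the difference of Stfa2l1 stayed between 2.95 and 3.66 and that of Stfa3 between 1.43 and 1.68. In the authors' deposited table the signed folds were 10.5 for Stfa2l1, 6.58 for Stfa2, 4.35 for Stfa1 and 3.00 for Stfa3.

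**Figure D1:**
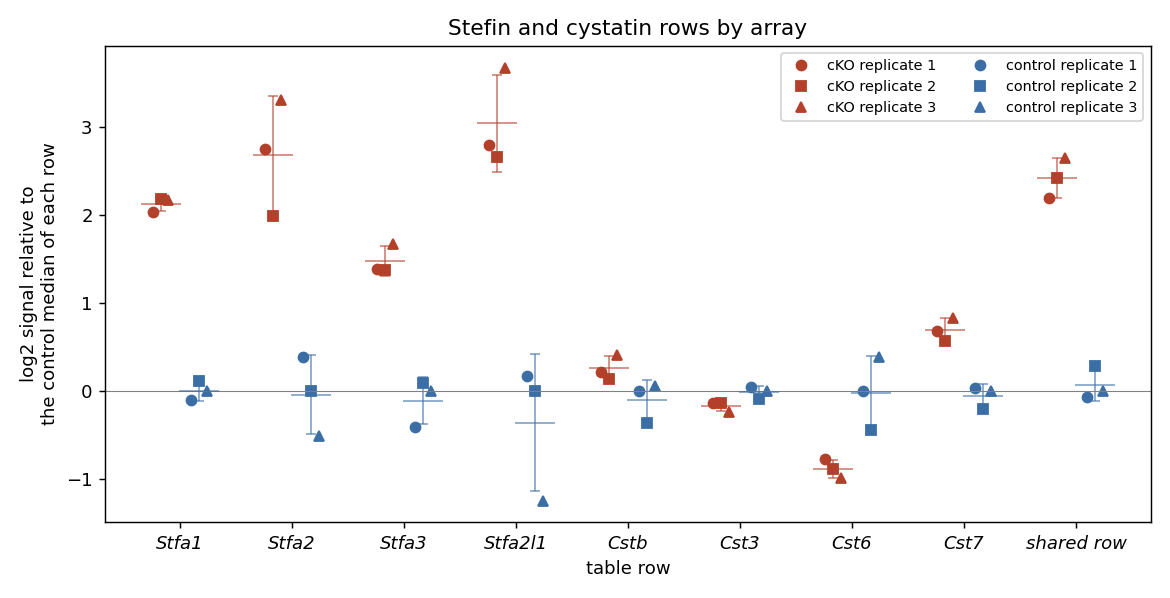
Log2 signal with the median control array at 0 (vertical axis) on each of the 6 arrays for the 8 genes and for the row that Stfa1 shares with other symbols. Red points are cKO arrays and blue points control arrays, with group means and SD bars. The 4 Stfa genes and the shared row lie well above their controls, Cst7 by less, Cstb and Cst3 near their controls, and Cst6 below.

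Over all members, limma called 4 of 8 higher and 0 lower at an adjusted p under 0.05, where it called 0.905% of all rows higher and 0.471% lower. The 3 cKO values all exceeded the 3 control values in 6 members and all fell short of them in 2, against 9.63% and 9.27% of all rows. Since the members were picked on this contrast, nothing is read from these counts. The member median was 1.17.

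The stefin A rows are not independent readings. The Stfa2l1 row carries that symbol alone but lists 2 gene identifiers, and its accessions include a Stfa2 transcript. The Stfa1 row spans positions 36180220 to 36285457 of build mm9 on the plus strand, and this span holds the whole rows of the relatives Csta3 (36210453 to 36217874) and Csta2 (36221554 to 36257530). The row shared by BC100530, Stfa1 and BC117090 (now Cstdc6), at 36359468 to 36367834 on the minus strand, had values of 2.19, 2.41 and 2.64 in the cKO arrays and -0.06, 0.28 and 0 in the controls. Its difference was 2.34 ± 0.21 (limma SE), between those of Stfa1 and Stfa2, and how much of it belongs to each of the 3 genes was not known.

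The upstream sequences of these genes show how alike the copies are. RefSeq promoter windows of build GRCm38.p6, 300 bases each and mostly upstream of the gene start, were matched for 6 of the 8 members. The stretches below lie on chromosome 16. Those of the 4 Stfa genes and Csta3 are shown because these genes were higher, that of Cstdc5 because its window is, of the 11 compared, the closest to that of Stfa1 and it has no row of its own, and those of Csta1 and Csta2 because these relatives were not called. Capitals mark a run of 13 letters that is shared by the 4 Stfa windows.
Stfa1, chr16:36277045-36277142, plus strand: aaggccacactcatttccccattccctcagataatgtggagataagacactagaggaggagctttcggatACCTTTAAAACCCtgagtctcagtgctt
Stfa2, chr16:36408368-36408465, minus strand: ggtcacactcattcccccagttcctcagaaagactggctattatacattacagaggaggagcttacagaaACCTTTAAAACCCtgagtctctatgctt
Stfa3, chr16:36455399-36455496, minus strand: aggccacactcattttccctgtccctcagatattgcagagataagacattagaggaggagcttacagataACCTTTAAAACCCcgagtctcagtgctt
Stfa2l1, chr16:36156705-36156802, plus strand: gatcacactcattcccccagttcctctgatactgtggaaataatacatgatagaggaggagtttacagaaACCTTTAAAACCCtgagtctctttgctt
Csta3, chr16:36210253-36210350, plus strand: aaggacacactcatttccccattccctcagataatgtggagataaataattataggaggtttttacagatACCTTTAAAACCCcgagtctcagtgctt
Cstdc5, chr16:36367555-36367652, minus strand: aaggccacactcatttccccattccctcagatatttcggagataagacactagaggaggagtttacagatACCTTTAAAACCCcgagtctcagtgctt
Csta1, chr16:36131190-36131287, minus strand: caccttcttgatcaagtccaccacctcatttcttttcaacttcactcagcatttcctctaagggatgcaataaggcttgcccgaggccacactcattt
Csta2, chr16:36221464-36221561, plus strand: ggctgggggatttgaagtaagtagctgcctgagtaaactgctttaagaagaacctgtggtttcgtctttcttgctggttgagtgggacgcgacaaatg

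The run ACCTTTAAAACCC, searched on both strands, begins 33 bases before the gene start in Stfa1, 32 in Stfa2, 34 in Stfa3 and 36 in Stfa2l1. Its place varies among the relatives, with 80 bases in Csta3, 12 in Cstdc5 and 32 in Cstdc4, the same as in Stfa2. Relative to the gene start it begins at -58 in a Cstdc3 window and at -62 in that of Gm7260. Its place in the 4 Stfa windows is thus not particular to them. It was found in 9 of 32851 windows of the table (0.0274%), all 9 at the stefin A locus. The run was picked after the windows were compared. In aligned pairs with free ends, the 4 Stfa windows matched each other at 238 to 275 of 300 bases. They matched Csta3, Cstdc5 and Cstdc4 at 201 to 269 bases, Csta1 at 164 to 176 and Csta2 at 1 to 21, as in the plot of pairwise matches. The 4 Stfa windows aligned with each other over 294 to 297 bases, but with Csta1 over only 206 to 210. The lower count of Csta1 thus comes partly from the shorter overlap. With Csta2 only 2 to 35 bases aligned, so that count does not measure likeness. The Csta1 window stops 59 bases after the start of CACTCATT, a string that in the Stfa windows begins 63 to 65 bases before the 13-letter run, so the window does not reach the matching place. The AP-1 letters TGANTCA were found in the Stfa3 window alone of the 4, and in 7.81% of all windows. The C/EBP letters TTGCNNAA were found in the Stfa1 window alone of the 4, and in 10.8% of all windows. TATAAA was found in 0 of the 4, and in 13.6% of all windows. Both strands were searched, and a match is a string of letters, not a shown binding site.

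**Figure D2:**
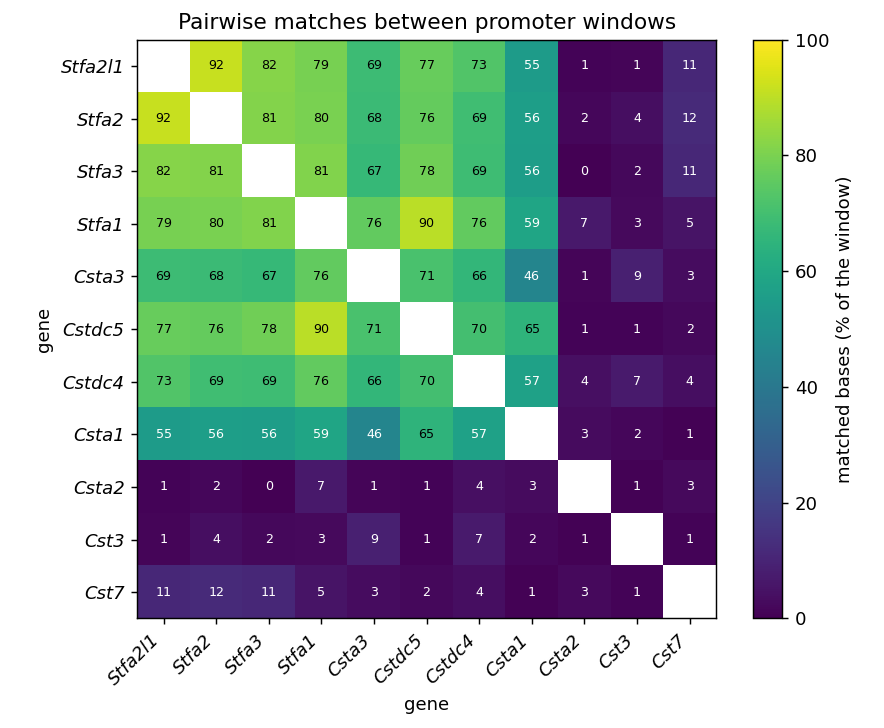
Matched bases between pairs of promoter windows of 300 bases, as a percentage of the window, for 11 genes on both axes. Yellow and green cells are pairs of stefin A family windows, with Stfa2l1 and Stfa2 at 91.7%, while Csta2, Cst3 and Cst7 match the Stfa windows at 12.0% or less. In those low pairs at most 59 bases aligned, as ends were free, and Csta1 pairs overlap over less than the whole window.

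Among the relatives at the same locus, 2 genes rose and 2 were not called. Csta3 (Gm5416 in the file), another stefin A copy, had 3.30, 2.45 and 4.40 in the cKO arrays and -0.29, 0 and 0.21 in the controls. It rose by 3.41 ± 0.39 with a limma adjusted p of 0.00106 (1.07e-06 to 0.225 over the alternatives). Cstdc6 (BC117090 in the file), a stefin-like gene, had 2.20, 2.25 and 2.58 in the cKO arrays and -0.81, 0.84 and 0 in the controls, so its controls were spread widely but stayed below every cKO array. It rose by 2.33 ± 0.35 with a limma adjusted p of 0.00583 (7.74e-05 to 0.28 over the alternatives), and the call ended without cKO replicate 3 (0.0816). Their adjusted p in the methods' t-test, run here over all rows, was 0.225 for Csta3 and 0.28 for Cstdc6. The authors' deposited corrected p, taken after their filters (an unpaired t-test per the file headers), was 0.0244 for Csta3 and 0.0339 for Cstdc6.

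Csta1, listed as Csta in the file, had 0.0005, 0.10 and 0.16 in the cKO arrays and -0.18, 0 and 0.003 in the controls. Its difference was 0.15 ± 0.19 with a limma adjusted p of 0.809 (0.569 to 0.934 over the alternatives). Csta2 (2010005H15Rik in the file) had 0.08, -0.11 and -0.49 in the cKO arrays and 0, 0.04 and -0.08 in the controls, a difference of -0.16 ± 0.21 with a limma adjusted p of 0.815 (0.754 to 0.999). In both the groups overlapped. The list of relatives was drawn by the beginning of the symbol, and it also took in Cstdc1, Cstdc2 and Cstad, which lie on chromosome 2 and differed by -0.54, -0.13 and 0.16 without being called. In all, limma called 2 of the 7 genes listed this way higher and 0 lower, with a median of 0.15. A shared beginning of the symbol does not show that a gene, such as Cstad, is a stefin.

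The 6 nearest protein-coding neighbours of the locus, 3 on each side in RefSeq GRCm38.p6, were added after the stefin values were seen. Limma called 0 of 6 (3 at an unadjusted p under 0.05, 0 by the methods' t-test, 1 with array weights), and their differences lay between -0.57 and 0.79. The widest was Cd86, a co-stimulatory ligand of antigen-presenting cells, at 0.79 ± 0.20 with a limma adjusted p of 0.0931, and 0.0341 with array weights (0.0341 to 0.275 over the alternatives). Fam162a differed by 0.69 ± 0.21 and Wdr5b by -0.57 ± 0.20.

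**Figure D3:**
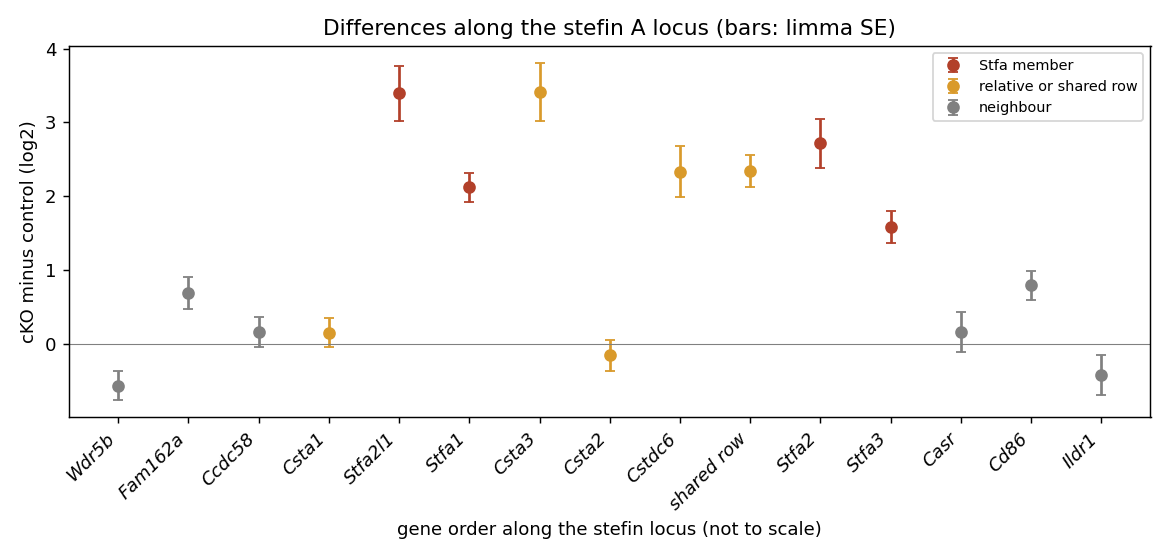
Log2 difference, cKO minus control, with limma SE bars (vertical axis) for genes in their order along the stefin A locus (horizontal axis, not to scale). Red points are Stfa genes, orange points their relatives and the shared row, grey points the 3 neighbours on each side. Csta1 at 0.15 and Csta2 at -0.16 lie near 0 among copies between 1.58 and 3.41.

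Cstb, the widely expressed stefin B, had 0.22, 0.14 and 0.41 in the cKO arrays and 0, -0.37 and 0.06 in the controls. The groups were separated by 0.078, and the difference was 0.36 ± 0.21. Cst3, cystatin C, had -0.13, -0.14 and -0.23 in the cKO arrays and 0.05, -0.09 and 0 in the controls. Its groups were 0.044 apart, with a difference of -0.16 ± 0.19, the smallest in size among the 8. With 1 array left out the differences ranged from 0.23 to 0.44 for Cstb and from -0.19 to -0.12 for Cst3.

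Cst6, cystatin M/E, was the lowest member. Its values were -0.77, -0.88 and -0.98 in the cKO arrays and 0, -0.44 and 0.39 in the controls, so that the cKO arrays lay close together 0.33 below a scattered control group. The difference was -0.86 ± 0.24, a geometric mean of 55.0% of the control's. It ranged from -1.08 to -0.66 with 1 array left out. Of the 8 members, 7 passed a filter on the bottom 20th percentile rebuilt from the control-centred values, and Cst6 did not. Since those values hold no level, this may differ from the authors' filter. It can drop a row because it fell in the cKO arrays, and says nothing about the abundance of Cst6.

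Of 7 sebaceous gland markers, measured beside Cst6, limma called 5 lower and 0 higher, with a median difference of -2.27, and the median over the list was -1.79, -2.81 and -2.75 on the cKO arrays and 0, -0.77 and 0 on the controls. Control replicate 2, lowest for Cst6 among the controls, was also lowest for this list. The called genes were Far2 (-5.23), Fa2h (-3.69), Elovl3 (-3.31), Mc5r (-2.27) and Scd1 (-1.70). Without cKO replicate 3 the calls of Elovl3 (limma adjusted p 0.0851), Mc5r (0.12), Scd1 (0.0752) and Far2 (0.0551) ended, and without control replicate 1 those of Elovl3 (0.0584), Mc5r (0.0728) and Scd1 (0.0562). Over the alternatives the adjusted p of these genes went as low as 2.1e-08 (Far2) and as high as 0.307 (Elovl3, Mc5r). The part of sebaceous gland in the Cst6 difference was not tested, and in whole tissue fewer cells of a type cannot be told apart from less RNA per cell. The 4 sweat gland markers differed by -0.47 to -0.03, with 0 called by limma (0 at an unadjusted p under 0.05, 0 by the methods' t-test).

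Legumain and cathepsin L, the proteases that cystatin M/E restrains, were not called. Lgmn, the protease legumain, had 0.14, 0.92 and 0.44 in the cKO arrays and 0.07, 0 and -0.20 in the controls, a difference of 0.54 ± 0.24 with a limma adjusted p of 0.407. Ctsl, cathepsin L, differed by 0.31 ± 0.20 (adjusted p 0.606). The transglutaminases, which are not targets of cystatins, cross-link the cornified envelope, and all 3 measured had separate groups, with the cKO arrays above. Tgm5 had 1.80, 1.53 and 2.15 in the cKO arrays and 0, 0.26 and -0.25 in the controls, and rose by 1.82 ± 0.23 with a limma adjusted p of 0.0022, kept without any single array and ended in the methods' t-test at 0.169 (0.00038 to 0.169 over the alternatives). Tgm3 differed by 0.68 ± 0.19 (limma adjusted p 0.149, and 0.0401 with array weights; 0.0401 to 0.391 over the alternatives) and Tgm1 by 0.62 ± 0.20 (adjusted p 0.233).

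Of the suprabasal epidermal markers limma called 2 of 7 rows lower and 0 higher, with a median of -0.16. Ivl, involucrin, fell by 1.68 ± 0.32 and 1 of the 2 Flg2 rows fell by 2.50 ± 0.22, while the other Flg2 row differed by 0.04 ± 0.40, so the rows of that gene disagree. The call of Ivl ended without cKO replicate 1 (limma adjusted p 0.0528), cKO replicate 3 (0.129), control replicate 1 (0.0694) or control replicate 3 (0.0882), and its adjusted p ranged from 0.000653 to 0.339 over the alternatives.

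Cst7, cystatin F, had 0.68, 0.57 and 0.83 in the cKO arrays and 0.04, -0.20 and 0 in the controls. The groups were 0.52 apart and the difference was 0.75 ± 0.20, a ratio of 1.68. It stayed between 0.67 and 0.81 with 1 array left out. The authors' deposited table lists it among the significant genes with a signed fold of 1.68, as it does the 4 Stfa genes.

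Markers of the cells that make cystatin F were mixed. Of 13 cytotoxic lymphocyte genes limma called 1 higher and 0 lower, with a median of 0.15. This was Il2rb, an interleukin receptor subunit, which rose by 1.27 ± 0.21 (limma adjusted p 0.0104, and 0.0536 without cKO replicate 3; 0.00407 to 0.158 over the alternatives). The nearest to a call was Klrb1c, a killer-cell receptor gene, at 0.76 ± 0.21 with groups 0.39 apart. Its limma adjusted p was 0.145, and 0.0218 with array weights (0.0218 to 0.422 over the alternatives). Cd8a followed at 0.56 ± 0.27 (limma adjusted p 0.454), with groups only 0.0046 apart. The killer-cell genes Prf1 (perforin), Gzmb (granzyme B) and Nkg7 differed by 0.15, 0.19 and 0.16 and were not called. Ctsw, a cathepsin of cytotoxic lymphocytes, differed by 0.16 ± 0.26. Of 11 macrophage and dendritic cell genes limma called 1 higher and 0 lower, with a median of 0.53. This was Lyz2, a lysozyme, which rose by 1.27 ± 0.24 (adjusted p 0.0212); the call ended without cKO replicate 1 (0.056), cKO replicate 3 (0.142), control replicate 2 (0.0724) or control replicate 3 (0.0888). Its adjusted p ranged from 0.00268 to 0.245 over the alternatives. Over that list the array medians were 0.59, 0.29 and 0.95 in the cKO and 0.53, 0 and -0.10 in the controls, so that the groups overlapped. The part of these cells in the Cst7 difference was not tested.

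Of the target proteases 2 rose. Of 10 measured cysteine cathepsins and legumain, limma called 2 higher and 0 lower, with a median of 0.43 against -0.0096 over all rows, and the cKO values all exceeded the control values in 6 of the 10. Ctsb lies on rows shared with another gene and was not analysed here. Ctsk, the collagen-degrading cathepsin of osteoclasts, had 2.83, 1.49 and 2.52 in the cKO arrays and 0.17, 0 and -0.005 in the controls. It rose by 2.23 ± 0.31 with a limma adjusted p of 0.00358, and the call ended without cKO replicate 3 (0.0536).

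Ctsc, the dipeptidyl peptidase that activates granule serine proteases, had 1.255, 1.201 and 1.497 in the cKO arrays and -0.08, 0.33 and 0 in the controls. It rose by 1.23 ± 0.21 with a limma adjusted p of 0.0125, but the call ended without cKO replicate 3 (0.0832), control replicate 1 (0.053) or control replicate 3 (0.0596). Ctsz differed by 0.89 ± 0.22 (limma adjusted p 0.0902) and Ctss, the cathepsin of antigen-presenting cells, by 0.87 ± 0.23 (0.115), and both were called with array weights (0.0229 and 0.0165). Over the alternatives the adjusted p ranged from 5.86e-05 to 0.242 for Ctsk, 0.00666 to 0.167 for Ctsc, 0.0229 to 0.299 for Ctsz and 0.0165 to 0.374 for Ctss. Ctsh, Ctso and Ctsf differed by 0.27, -0.44 and -0.12 and were not called. The 4 aspartic and serine cathepsins, which stefins and cystatins do not inhibit, had a median of -0.10, with 0 called by limma (0 at an unadjusted p under 0.05, 0 by the methods' t-test). The difference between the protease classes was not tested.

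Of 8 osteoclast markers limma called 3 higher and 0 lower with a median of 0.65, namely Ctsk itself, Mmp9, a matrix metalloproteinase (3.01 ± 0.45), and Atp6v0d2, a proton pump subunit (2.85 ± 0.38). The other 5 were not called, with Acp5 at 0.78, Dcstamp at 0.53, Oscar at 0.06, Ocstamp at -0.07 and Calcr at -0.41. In all 3 called genes cKO replicate 2 was the lowest cKO array. Calls ended without cKO replicate 3 for Mmp9 (limma adjusted p 0.0841) and Atp6v0d2 (0.0535), and for Mmp9 without control replicate 1 (0.0674). Over the alternatives the adjusted p ranged from 9.86e-05 to 0.296 for Mmp9 and from 6.49e-06 to 0.258 for Atp6v0d2.

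Most other cystatin superfamily genes were not called. Of 14, limma called 1 higher and 0 lower, with a median of 0.13. Fetub, the liver-made fetuin-B, which inhibits astacin metalloproteases, had 1.98, 1.67 and 1.73 in the cKO arrays and -0.02, 0.61 and 0 in the controls, and rose by 1.60 ± 0.23 with a limma adjusted p of 0.00501 (0.00106 to 0.188 over the alternatives). It was kept without any single array. Ahsg, fetuin-A, differed by 1.53 ± 0.48, but its arrays overlapped, with 2.06, 0.18 and 1.48 in the cKO and -1.27, 0.41 and 0 in the controls. Its limma adjusted p was 0.216, and 0.045 without cKO replicate 2 (0.045 to 0.583 over the alternatives). Cst11 differed by -0.46 ± 0.20 and was not called. The remaining 11, among them the secreted cystatins Cst8, Cst9, Cst10, Cst12 and Cst13 and the kininogens, lay between -0.22 and 0.37.

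Cell types known to hold stefin A gave different values beside the rise of the Stfa genes. Of 16 neutrophil markers measured apart from calprotectin, limma called 0 (3 at an unadjusted p under 0.05, 0 by the methods' t-test, 0 with array weights), with a median of 0.06. The median over the list lay between 0.04 and 0.07 on the cKO arrays and between 0 and 0.18 on the controls, so the groups overlapped. The granule genes Mpo, Elane, Ngp and Camp differed by -0.31, -0.04, -0.20 and 0.17, and Ly6g, a neutrophil surface marker, by 0.35 ± 0.23. The nearest to a call were Trem1 (0.66 ± 0.22, adjusted p 0.247), Itgam (0.63 ± 0.25) and Ltf (0.49 ± 0.20).

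Of the 7 wound keratinocyte genes limma called 6 higher and 0 lower, with a median of 1.37. The stress keratins Krt16, Krt6b and Krt6a rose by 1.37, 1.31 and 1.06, the calprotectin genes S100a8 and S100a9, which neutrophils also express, by 5.05 and 4.89, and Sprr2d, a cornified-envelope protein, by 3.73. Sprr1b differed by 0.04 ± 0.21. The array medians of this list were 1.35, 1.40 and 1.44 in the cKO and 0, 0.07 and -0.02 in the controls. Without cKO replicate 3 the calls of Krt16 (limma adjusted p 0.0709), Krt6b (0.075) and Krt6a (0.0752) ended. That of Krt6b also ended without control replicate 1 (0.0541) or 3 (0.0597), and that of Krt6a without cKO replicate 1 (0.0822) or 2 (0.0577) and control replicate 1 (0.0515) or 3 (0.0874). Over the alternatives the adjusted p of the 3 keratins lay between 0.00355 (Krt16) and 0.19 (Krt6b). The part of either cell type in the Stfa values was not tested.

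**Figure D4:**
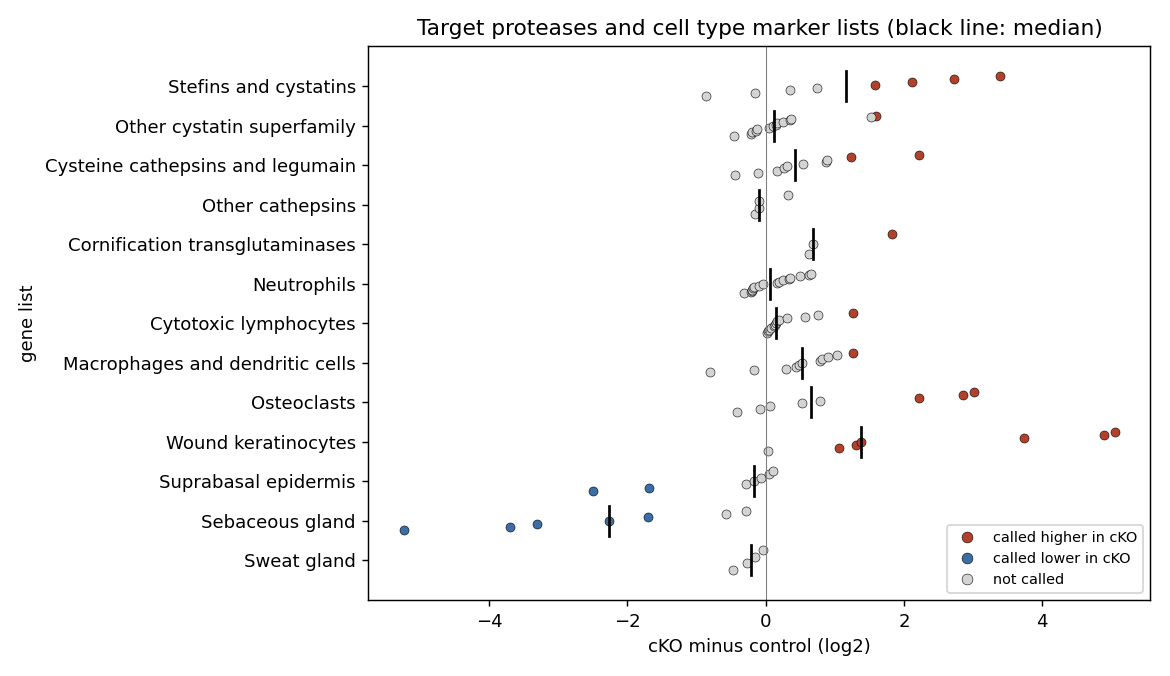
Log2 differences, cKO minus control (horizontal axis), of single genes by list (vertical axis), with a black line at each list median. Red points were called higher by limma, blue points lower and grey points not. The wound keratinocyte list has 6 red points and a median of 1.37, the neutrophil list has 16 grey points and a median of 0.06, and the sebaceous list has 5 blue points.

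The mean of the 4 Stfa rows was 2.24, 2.05 and 2.70 on the cKO arrays and 0.01, 0.05 and -0.44 on the controls. Among 617 single-gene rows with a difference of at least 1 in size, the profiles most like it over the 6 arrays were those of Galnt6 (Pearson r 0.999), Oas1h (0.997), Tgm5 (0.996), Col6a1 (0.995), Efemp2 (0.995) and Arg1 (0.995). These values describe likeness only: the 6 points fall in 2 groups that differ in each gene by the way it was picked. Oas1h, an oligoadenylate synthetase family gene, was higher by 1.92 ± 0.23, Arg1, arginase, by 1.99 ± 0.22, Galnt6, a glycosyltransferase, by 1.14 ± 0.20, Col6a1, a collagen VI chain, by 1.46 ± 0.21 and Efemp2, a fibulin, by 1.12 ± 0.21.

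Profiles most like that of Cst6 were those of Gk5, a glycerol kinase family gene (r 0.996), Frem2, a basement-membrane protein (0.980), and Soat1, a cholesterol acyltransferase (0.974). Soat1 had -2.67, -2.75 and -3.19 in the cKO arrays and 0, -1.86 and 0.06 in the controls. Profiles most like that of Cst7 were those of Krt17, a stress and appendage keratin (r 0.997), Abhd12b (0.997) and Vmn1r49 (0.995). Krt17 had 1.03, 0.74 and 1.20 in the cKO arrays and 0, -0.27 and 0.01 in the controls.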

How the data were processed

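PLIER16 summary, quantile normalisation and a control-median baseline were applied by the authors, per the methods sheet deposited with the values. The deposited values are log2 signals. The authors' deposited fold score is cKO over control, with falls as negative reciprocals, and their deposited p-values, Benjamini-Hochberg corrected, followed removal of the bottom 20th percentile and a 1.5-fold filter (an unpaired t-test per the file headers, an ANOVA per the methods sheet). Build mm9 is per the file headers.

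Each of 28853 rows entered a linear model in limma 3.58.1 (R 4.3.3), cKO minus control, moderated by eBayes with 7.40 prior degrees of freedom and Benjamini-Hochberg adjusted at 0.05. Errors are limma standard errors. Of the rows, 22984 carry 1 symbol, and 2642 symbols were updated through RefSeq GRCm38.p6. Rows with several symbols entered no list. Named genes are the members, Ctnnb1, called list genes, those of smallest p per list, fixed target genes and the most alike profiles. Further uncalled genes of the lists (such as Prf1, Gzmb, Mpo, Elane, Ly6g, Ctsh and Ctsw) were named after their values were seen. Alternatives were the workbook values, arrays centred on their median, a replicate block, array weights, robust variances, the percentile filter, gene means, each array left out in turn, and the unpaired t-test of the file headers (the methods' t-test). Here that t-test was adjusted over all rows, without the authors' filters, so its calls are not those of the authors' deposited list. Members and lists were chosen with earlier results of these data known. The fit was first tested on known answers, where it recovered 15% of 2-fold and 85% of 4-fold changes. Most 2-fold changes were thus not called in that test. The small number of arrays limits the precision. The same replicate numbers in both groups were not taken as pairs, as the labels do not say whether they pair the arrays. Promoter windows were aligned with Biopython 1.88. Figures were made with matplotlib 3.10.9.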

Additional observations from a re-analysis of the deposited data

How the results depend on the processing

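The differences of the 8 members and of the shared row moved by less than the spread between replicates in all 124 recomputed values. This was nearly fixed in advance and is no sign of robustness. With 3 arrays per group, leaving 1 out cannot move a difference by that spread. The replicate block, robust variances, percentile filter, t-test and gene means leave these differences as they are. Limma called 4 members, which were chosen on this contrast, and 5 with array weights, where Cst7 was added. The authors' deposited list, made after their filters, holds the 4 Stfa genes and Cst7. The methods' t-test, adjusted here over all rows, called 0 members. Over all rows that test called 3 rows higher and 0 lower in all, against 261 and 136 with limma. With the replicate number as a block limma called 404 higher and 232 lower, and with array weights 584 and 339. Same-numbered arrays deviated together with correlations of 0.05, 0.14 and -0.09. The control with the highest correlation had the same number for cKO replicates 1 and 2, but was control replicate 1 for cKO replicate 3. These low values do not settle whether the arrays are paired, and the numbers were not taken as pairs. The 20th percentile filter left 49 lower, but on control-centred values it can drop rows because they fell. Leaving out 1 array gave 107 to 254 higher and 44 to 135 lower, lowest without cKO replicate 3 (107 and 44), with 68 lower without control replicate 1 and 70 without control replicate 3. In the related lists 16 rows were called higher and 7 lower, 2 and 0 with the methods' t-test, 0 lower after the percentile filter, and 6 to 16 higher and 2 to 7 lower with 1 array left out. Of 1060 recomputed values of other genes, 98 lost a call, 9 gained one and 953 kept their call status. Among those 953, 6 values of 4 uncalled genes changed sign: Ctse and Foxi1 were 0.04 and 0.06 without control replicate 1, Casr was -0.10 without control replicate 3, and Sprr1b was -0.06 to -0.04 with array weights, without cKO replicate 2 and without control replicate 1. The cause of these shifts was not tested. A gene that was not called is not shown to be unmoved. Signal over background could not be read from control-centred values.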
